A study of Mus musculus with 36 samples.

Results

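The genes described here were 8 phosphatases of the dual-specificity (DUSP) family that act on MAP kinases, namely Dusp1, Dusp2, Dusp4, Dusp5, Dusp6, Dusp7, Dusp8 and Dusp14. They were chosen by name, with earlier results of these data known, from the 52636 genes of the expression table. Their Ensembl identifiers were matched to symbols. All 8 were found, and all 8 passed the filter on low values that left 25572 genes for testing (at least 0.1 TPM in at least 8 libraries). RNA was taken from punches of the anterior cingulate cortex (aCC), right side, in 36 female mice aged 8 to 11 weeks, and each mouse gave 1 RNA-seq library. Mice of the C57BL/6NTac-Brd1 line were wild type (WT) or heterozygous (Brd1+/-) for an allele that lacks part of Brd1 in the whole body. The BRD1 protein has a bromodomain and belongs to histone acetylation complexes. Treatment was either saline (vehicle) or 10 mg/kg of imipramine (IMN), an antidepressant of the tricyclic class that blocks the reuptake of serotonin and noradrenaline. Of the vehicle libraries 8 were WT and 9 Brd1+/-, and of the IMN libraries 10 were WT and 9 Brd1+/-. All mice, vehicle groups included, had by the study's methods been injected on consecutive days and put through a tail suspension test, an open field and a forced swim, with the brain taken soon after the swim.

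MAP kinases (ERK, JNK and p38) carry signals from receptors and synaptic activity to the nucleus once they are phosphorylated on a threonine and a tyrosine. DUSPs remove both phosphates and so switch the kinases off, and since many DUSP genes are themselves switched on by the same pathway they act as its negative feedback. In cortical neurons ERK signalling is needed for activity-dependent transcription of immediate-early genes, and DUSP1 in particular has been studied in the context of depression and stress. Dusp1, Dusp2, Dusp4 and Dusp5 encode inducible phosphatases of the nucleus, where DUSP5 acts on ERK. Dusp6 and Dusp7 encode cytoplasmic phosphatases that prefer ERK, and Dusp8 encodes one that prefers JNK and p38. Dusp14 encodes a small atypical member that lacks the kinase-binding domain of the others.

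Values are TPM (a transcript level scaled to gene length and to the total of the library), which keep no record of depth, so that errors given here are the spread between mice. Brd1 itself was at 16.8 TPM ± 2.72 (SD, n = 9) in Brd1+/- vehicle and at 26.4 TPM ± 3.03 (SD, n = 8) in WT vehicle. All 10 pyramidal neuron markers had a median of at least 1 TPM over all libraries. Some libraries stood apart. Brd1+/- vehicle replicate 6 held 1540 TPM of summed striatal markers and 3912 TPM of summed choroid plexus markers, where WT vehicle libraries reached at most 304.6 and 4.34 TPM. WT vehicle replicate 1 and Brd1+/- IMN replicate 6 had the lowest means of immediate-early genes of all libraries and the highest summed oligodendrocyte markers of their groups, 2841 and 3445 TPM.

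Per length, Dusp14 had the highest level of the 8 genes, with a mean of 104.0 TPM ± 28.7 (SD, n = 36) over all libraries, and it lay above Dusp6 in 36 of 36. Dusp6 (58.2 TPM ± 10.9), Dusp8 (57.8 TPM ± 4.79) and Dusp7 (56.8 TPM ± 7.71) followed, and neighbours among these 3 differed by less than 1 SD of their difference on the log2 scale. Dusp1 came next at 48.0 TPM ± 8.72 and was below Dusp7 in 30 of 36 libraries. The other inducible genes were lower, with Dusp5 at 17.2 TPM ± 4.87 and Dusp4 at 8.38 TPM ± 1.79. Dusp2, known mainly from activated lymphocytes, was at 0.921 TPM ± 0.475, and it was above 0 in all 36 libraries. Spread between libraries also differed between the genes: the coefficient of variation over all libraries was 8.29% for Dusp8, 13.6% for Dusp7, 27.6% for Dusp14, 28.3% for Dusp5 and 51.6% for Dusp2. These values pool the 4 groups and so hold any difference between them. Within groups the coefficient ran from 8.55% to 13.4% for Dusp7 and from 18.1% to 27.0% for Dusp14. The 8 genes together summed to 378.9 TPM ± 48.6 (SD, n = 8) in WT vehicle, 381.1 ± 27.4 (n = 9) in Brd1+/- vehicle, 323.2 ± 31.6 (n = 10) in WT IMN and 328.0 ± 30.9 (n = 9) in Brd1+/- IMN. Of these sums Dusp14 alone made up 120.8, 123.6, 89.0 and 86.0 TPM in the same order, so that they do not describe the 8 genes evenly.

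**Figure D1:**
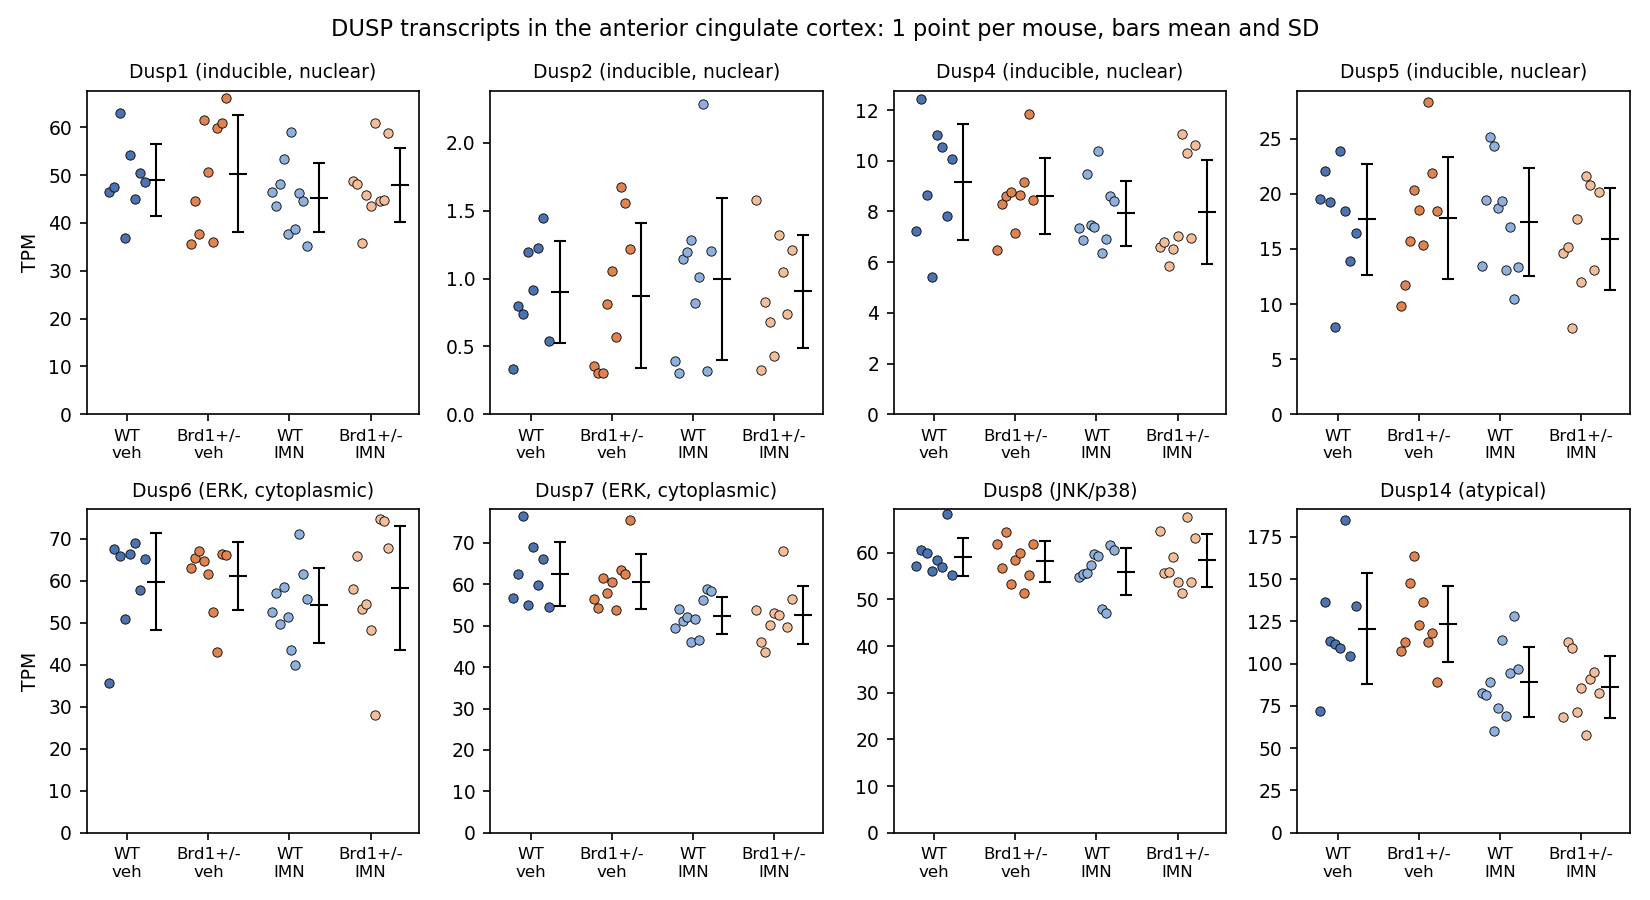
TPM of each of the 8 DUSP genes in the 4 groups, with 1 point per mouse and a bar for the group mean and SD (n = 8, 9, 10 and 9 from left to right; linear axes from 0, scaled per gene). In the Dusp7 and Dusp14 panels the IMN points sit lower than the vehicle points in both genotypes, with overlap, while the groups of the other 6 genes lie over each other.

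With IMN, 2 of the 8 genes were lower than with vehicle when the effect was averaged over both genotypes, and 0 were higher, at a limma p-value under 0.05 adjusted over all genes. Over all genes 0.254% were called (65 of 25572), a share given for scale only, since the 8 genes were chosen with earlier results known. The 2 genes were the atypical phosphatase gene Dusp14, lower by 28.2%, and the cytoplasmic ERK phosphatase gene Dusp7, lower by 14.6%. Both calls were close to the threshold. In the 36 fits that each left out a different library, the Dusp14 call was lost in 13 and the Dusp7 call in 26. The calls also depended on the processing (described further on). Both were still called without all 3 libraries that stood apart, a fit chosen after the data had been seen. There the values were -0.48 for Dusp14 (limma adjusted p = 0.0126) and -0.25 for Dusp7 (adjusted p = 0.0319) on the log2 scale. With all libraries the 4 inducible nuclear genes, Dusp6 and Dusp8 did not pass. At an unadjusted limma p under 0.05 no other member passed either (2 of 8, beside 9.24% of all genes). Of the 8 log2 fold changes 7 were below 0, with a median of -0.10 (Dusp2, at 0.06, was the exception and lay at -0.034 without these 3 libraries), against 51.1% below 0 and a median of -0.0024 among all genes tested. Fewer cells of a type and less RNA per cell cannot be told apart in tissue punches.

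Dusp14 (ENSMUSG00000018648) lies on the minus strand of GRCm38 at chr11:84048041-84069261. Its level in WT vehicle ran from 72.2 over a median of 112.4 to 185.1 TPM, and in Brd1+/- vehicle from 89.4 over 118.4 to 163.5 TPM. With IMN it ran from 60.4 over a median of 85.9 to 128.5 TPM in WT and from 57.7 over 85.4 to 112.8 TPM in Brd1+/- mice. Most treated mice of both genotypes were low: 17 of 19 IMN libraries lay below the median of all vehicle libraries (113.2 TPM), although the groups overlapped. The means were 120.8 TPM ± 32.6 (SD, n = 8) and 89.0 ± 20.6 (n = 10) in WT mice and 123.6 ± 22.4 (n = 9) and 86.0 ± 18.3 (n = 9) in Brd1+/- mice, vehicle first. The log2 fold change averaged over genotypes was -0.48 (SE 0.10, 95% interval -0.69 to -0.27), with a limma adjusted p-value of 0.0360, which ranked Dusp14 at 38 of 25572 genes. In WT mice alone it was -0.43 (SE 0.16), with an exact permutation p of 0.0220 and 9 of 10 IMN libraries below the vehicle mean. In Brd1+/- mice alone it was -0.53 (SE 0.13), with an exact permutation p of 0.00136 and 9 of 9 IMN libraries below the vehicle mean. Adjusted over all genes these within-genotype differences did not pass (limma adjusted p = 0.644 and 0.488).

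Dusp7 (ENSMUSG00000053716) lies on the plus strand at chr9:106368632-106375724. Its level ran from 54.5 over a median of 61.2 to 76.6 TPM in WT vehicle and from 53.9 over 60.5 to 75.5 TPM in Brd1+/- vehicle. With IMN it ran from 46.1 over a median of 51.9 to 58.9 TPM in WT and from 43.7 over 52.6 to 68.1 TPM in Brd1+/- mice. Treated mice were again mostly low: 18 of 19 IMN libraries lay below the vehicle median of 60.5 TPM, and 13 lay below the lowest vehicle library. The averaged log2 fold change was -0.23 (SE 0.053, 95% interval -0.33 to -0.12), with a limma adjusted p-value of 0.0477 at rank 64, close to the threshold. In WT mice it was -0.25 (SE 0.071), with an exact permutation p of 0.00219 and 10 of 10 IMN libraries below the vehicle mean. In Brd1+/- mice it was -0.21 (SE 0.078), with an exact permutation p of 0.0167 and 8 of 9 libraries below. Adjusted over all genes these did not pass either (limma adjusted p = 0.486 and 0.826).

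Within genotypes 0 of the 8 genes were called in WT mice, where 0% of all genes were, and 0 in Brd1+/- mice, where 0.00782% of all genes were. At an unadjusted limma p under 0.05 Dusp7 and Dusp14 passed in each genotype, 2 of the 8 genes, beside 6.6% of all genes in WT and 5.52% in Brd1+/- mice. The averaged calls rested on the combined libraries and were close to the threshold. The Dusp14 call was lost in 13 of the 36 fits that left out 1 library, with adjusted p-values up to 0.0674. The Dusp7 call was lost in 26 of them, with adjusted p-values up to 0.0974. Without WT vehicle replicate 1 the adjusted p-value was 0.00547 for Dusp14 and 0.0276 for Dusp7. Without Brd1+/- vehicle replicate 6 it was 0.0516 and 0.0452, and without Brd1+/- IMN replicate 6 it was 0.0619 and 0.0707.

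**Figure D2:**
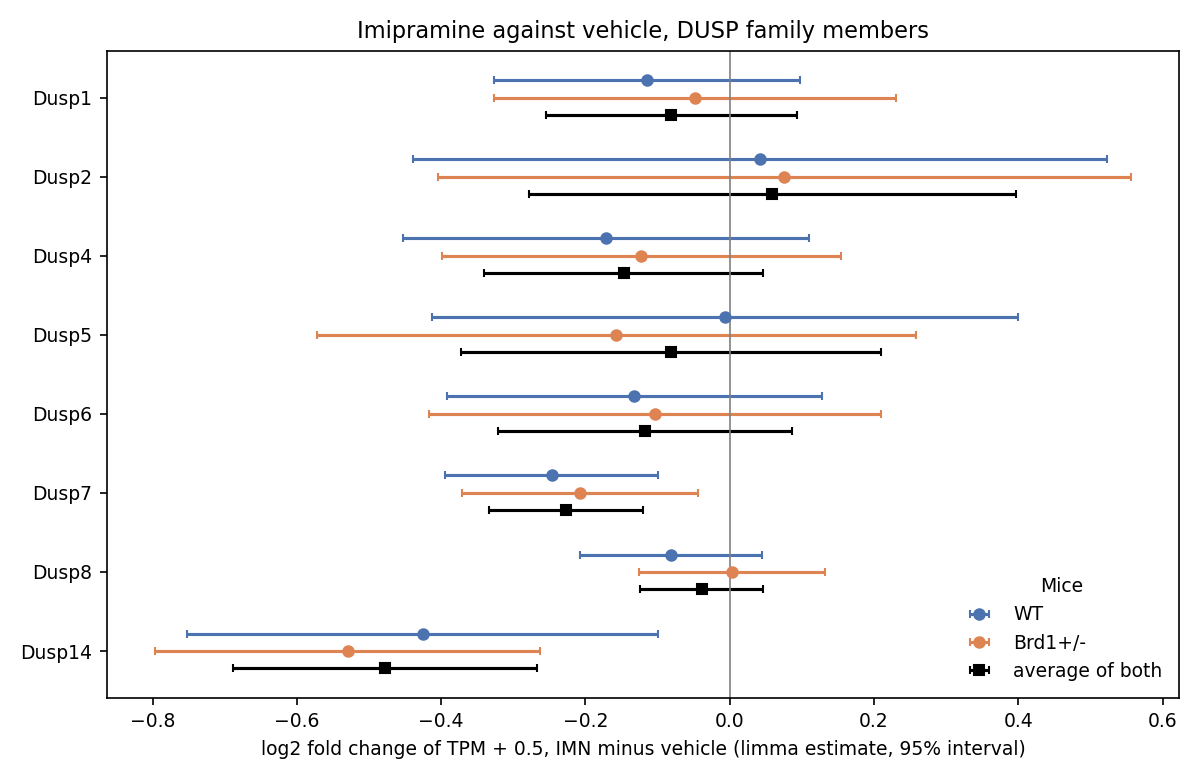
Log2 fold change of TPM + 0.5 with IMN against vehicle for each DUSP gene in WT mice, in Brd1+/- mice and as the average of both (horizontal axis, limma estimates with 95% intervals). The intervals of Dusp7 and Dusp14 lie below 0 in both genotypes, and those of the other 6 genes include 0.

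Promoters of Dusp14, Dusp7, Dusp1 and Dusp5 are shown because the first pair was lower with IMN and the second pair varied together between mice (described further on). RefSeq promoter windows on GRCm38.p6, from 250 bases before to 50 bases after the annotated start, were matched for 7 of the 8 genes, all but Dusp4. The windows are chr11:84068308-84068607 (minus strand) for Dusp14, chr9:106368382-106368681 (plus) for Dusp7, chr17:26508423-26508722 (minus) for Dusp1 and chr19:53528895-53529194 (plus) for Dusp5. Capitals mark matches, on either strand, to the CRE half-site TGACG (a core of the site bound by CREB), the AP-1 site TGANTCA, the EGR site GCGNGGGCG and the CArG box bound by SRF.
Dusp14: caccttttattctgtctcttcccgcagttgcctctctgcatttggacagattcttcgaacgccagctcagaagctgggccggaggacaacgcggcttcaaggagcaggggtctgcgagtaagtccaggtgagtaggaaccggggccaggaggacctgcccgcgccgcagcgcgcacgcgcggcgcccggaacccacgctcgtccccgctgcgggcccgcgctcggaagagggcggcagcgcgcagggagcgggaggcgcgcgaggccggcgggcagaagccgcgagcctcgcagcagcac
Dusp7: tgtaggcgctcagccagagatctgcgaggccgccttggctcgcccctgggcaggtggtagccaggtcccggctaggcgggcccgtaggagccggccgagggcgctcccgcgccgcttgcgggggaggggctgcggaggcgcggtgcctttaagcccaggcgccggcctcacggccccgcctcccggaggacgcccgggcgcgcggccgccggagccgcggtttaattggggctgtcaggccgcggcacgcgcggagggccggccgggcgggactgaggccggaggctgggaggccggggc
Dusp1: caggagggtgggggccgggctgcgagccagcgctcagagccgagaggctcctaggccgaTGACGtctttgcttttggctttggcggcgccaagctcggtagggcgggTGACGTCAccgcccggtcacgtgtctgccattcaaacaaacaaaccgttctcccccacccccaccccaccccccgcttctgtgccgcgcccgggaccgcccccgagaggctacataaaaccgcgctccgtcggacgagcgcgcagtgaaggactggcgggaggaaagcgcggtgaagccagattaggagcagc
Dusp5: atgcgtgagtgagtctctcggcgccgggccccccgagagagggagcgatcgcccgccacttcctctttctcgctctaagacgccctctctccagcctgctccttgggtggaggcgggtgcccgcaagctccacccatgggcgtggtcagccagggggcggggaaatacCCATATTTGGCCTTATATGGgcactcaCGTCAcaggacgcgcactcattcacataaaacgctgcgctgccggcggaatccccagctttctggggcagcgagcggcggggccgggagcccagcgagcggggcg
The Dusp14 and Dusp7 windows held no match to any of these 4 motifs, and neither did that of Dusp6. Only 1 window per gene was read, while the gene annotation lists 5 transcripts for Dusp14, 4 for Dusp7, 6 for Dusp1 and 1 for Dusp5. Other starts of these genes were not examined. Dusp1 held a full CRE (TGACGTCA) at position -143 from the start, which contains 2 of its 3 half-site matches. Dusp5 held CArG boxes at -82 and -72 and a CRE half-site at -55. Dusp8 held full CREs at -107 and -63, and Dusp2 held an EGR site at -98 and a half-site at 5. Of 32851 promoter windows of the same length, 1.79% held a full CRE, 20.8% a half-site, 7.81% an AP-1 site, 5.55% an EGR site and 1.63% a CArG box. The GC box GGGCGG was found in 6 of the 7 windows, all but Dusp6, and in 35.7% of all windows. A match describes the letters of the window and does not show that a factor binds there.

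Among the inducible nuclear phosphatases, none passed in any comparison. Dusp1 (ENSMUSG00000024190, chr17:26505590-26562128, minus strand), the founding member of the family and a classical immediate-early gene, ran from 36.9 over a median of 48.1 to 62.9 TPM in WT vehicle and from 35.6 over 50.6 to 66.1 TPM in Brd1+/- vehicle. With IMN it ran from 35.2 over 45.4 to 59.0 TPM in WT and from 35.9 over 45.9 to 60.9 TPM in Brd1+/- mice. The 4 groups covered nearly the same range. The averaged log2 fold change was -0.08 (SE 0.086, 95% interval -0.26 to 0.09), with a limma adjusted p-value of 0.848. Dusp4 (ENSMUSG00000031530, chr8:34807297-34819894, plus strand), a nuclear phosphatase of ERK and JNK, had group means between 7.92 and 9.15 TPM and an averaged log2 fold change of -0.15 (95% interval -0.34 to 0.05). Its 19 IMN libraries lay below the vehicle median in 14 cases, and the count was the same for Dusp1 and for Dusp6. Dusp5 (ENSMUSG00000034765, chr19:53529109-53542431, plus strand) had group means between 15.9 and 17.8 TPM and an averaged log2 fold change of -0.08 (95% interval -0.37 to 0.21). Dusp2 (ENSMUSG00000027368, chr2:127336159-127338376, plus strand) had group means between 0.873 and 0.996 TPM and an averaged log2 fold change of 0.06 (95% interval -0.28 to 0.40), the only value of the 8 above 0. Strand use in the quantification was not stated in the sources used here, so that Dusp1, which overlaps Ergic1 on the other strand, Dusp5, which overlaps an antisense RNA, and Dusp8, which overlaps Gm32786, are uncertain to that extent.

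Dusp6 (ENSMUSG00000019960, chr10:99263231-99267489, plus strand), the cytoplasmic ERK phosphatase that ERK itself induces, had group means of 59.8 TPM ± 11.5 (SD, n = 8) in WT vehicle, 61.1 ± 8.06 (n = 9) in Brd1+/- vehicle, 54.1 ± 8.97 (n = 10) in WT IMN and 58.3 ± 14.7 (n = 9) in Brd1+/- IMN. The averaged log2 fold change was -0.12 (SE 0.10, 95% interval -0.32 to 0.09), and the limma adjusted p-value was 0.790. The lowest Dusp6 values, 35.6 TPM in WT vehicle replicate 1 and 28.01 TPM in Brd1+/- IMN replicate 6, came from the libraries with the lowest immediate-early means. Both libraries also held the most oligodendrocyte marker RNA of their groups, 2841 TPM in WT vehicle replicate 1 against 191.9 to 968.4 in the rest of its group, and 3445 TPM in Brd1+/- IMN replicate 6 against 229.7 to 2348. The part of either in the low Dusp6 levels was not tested. Dusp8 (ENSMUSG00000037887, chr7:142079490-142095843, minus strand), the JNK and p38 phosphatase gene, had the least spread, with group means between 55.9 and 59.1 TPM. Its averaged log2 fold change was -0.04 (SE 0.042, 95% interval -0.12 to 0.05), so that its interval was the narrowest of the 8.

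Between genotypes, 0 of the 8 genes were called with vehicle, where 0% of all genes were, and 0 with IMN, where 0% were too. The targeted gene Brd1 was not called either, at -0.64 on the log2 scale with vehicle (limma adjusted p = 0.0620) and -0.45 with IMN (adjusted p = 0.882). The adjusted test thus missed a known loss, and 0 calls do not show that the 8 genes were unchanged. At an unadjusted limma p under 0.05 none of the 8 passed in either comparison, against 3.75% and 3.23% of all genes. The log2 fold change of Dusp14 in Brd1+/- against WT mice was 0.06 (95% interval -0.25 to 0.36) with vehicle and -0.05 (95% interval -0.33 to 0.24) with IMN. Dusp7 differed by -0.04 (95% interval -0.20 to 0.12) with vehicle and by -0.0014 (95% interval -0.15 to 0.15) with IMN. Over all 8 genes the log2 fold changes lay between -0.08 and 0.06 with vehicle and between -0.14 and 0.08 with IMN. The widest intervals were those of Dusp2, from -0.57 to 0.41 with vehicle, and of Dusp5, from -0.43 to 0.45.

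The difference of the IMN effect between genotypes was tested as an interaction over all 36 libraries, and 0 of the 8 genes were called, beside 0% of all genes. At an unadjusted limma p under 0.05 none passed either, against 3.2% of all genes. For Dusp14 the interaction was -0.10 on the log2 scale (95% interval -0.53 to 0.32) and for Dusp7 it was 0.04 (95% interval -0.17 to 0.25), both with a limma adjusted p-value of 1.00. The intervals of both genes were wide enough to hold a difference as large, in size, as their averaged IMN effects. Of the other 6 genes Dusp8 had the narrowest interval (-0.09 to 0.26) and Dusp2 the widest (-0.64 to 0.71).

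The remaining dual-specificity phosphatases and the other parts of the MAP kinase pathway were examined in the same averaged comparison, as lists chosen by function. Of 16 other DUSP genes tested, 0 were called, 8 had a log2 fold change above 0 and 8 below, and the median was 0.01. The genes with the smallest p-values were Dusp22, a phosphatase gene of the JNK pathway (0.36, 95% interval 0.15 to 0.58, limma adjusted p = 0.146), and Dusp16, a JNK phosphatase gene (0.33, 95% interval 0.03 to 0.63, limma adjusted p = 0.469). Dusp22 was at 11.1 TPM ± 3.17 (SD, n = 8) in WT vehicle and 15.1 ± 1.49 (n = 10) in WT IMN, opposite in sign to Dusp14 and Dusp7. Of the 10 genes of the Ras, Raf, MEK and ERK cascade 0 were called and 8 lay below 0, led by Mapk3, which encodes ERK1 (-0.37, limma adjusted p = 0.308), and Hras (-0.15, adjusted p = 0.588). Of 12 JNK, p38 and ERK5 pathway genes 0 were called and 7 lay below 0. The 2 leading ones were both p38 kinase kinases and differed in sign: Map2k6 had a log2 fold change of 0.36 (95% interval 0.18 to 0.53, limma adjusted p = 0.0605) and Map2k3 one of -0.34 (95% interval -0.53 to -0.15, adjusted p = 0.115).

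Of 11 effector kinase genes downstream of MAP kinases 0 were called and 9 lay below 0, led by Mknk2, a kinase of the translation factor eIF4E (-0.21, limma adjusted p = 0.131), and Mapkapk2, a p38 substrate (-0.16, adjusted p = 0.429). Of 8 Sprouty and SPRED genes and other feedback inhibitors of ERK 0 were called, with 4 on either side of 0. Their leading genes were Spry2 (-0.21, 95% interval -0.31 to -0.10, limma adjusted p = 0.0676) and Spred2 (-0.21, adjusted p = 0.166). Of 6 other phosphatase genes of MAP kinases 0 were called, and Ptpn5, the striatum-enriched phosphatase of ERK, had a log2 fold change of -0.14 (adjusted p = 0.335) and Ptprr one of 0.06 (adjusted p = 0.899). Of 8 transcription factor genes that MAP kinases act on 0 were called, led by Srf (-0.24, limma adjusted p = 0.164) and Creb1 (0.20, adjusted p = 0.540).

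Immediate-early genes, the transcripts that synaptic activity and ERK induce within minutes, were the pathway list with called genes. Of 13 genes 3 were called lower with IMN and 13 had a log2 fold change below 0, with a median of -0.42. Over all genes 0.254% were called and 51.1% lay below 0, and the list was chosen with earlier results of these data known. Npas4, an activity-dependent transcription factor gene, was at 39.6 TPM ± 17.0 (SD, n = 8) in WT vehicle and 18.4 ± 4.54 (n = 10) in WT IMN, and at 35.9 ± 14.2 (n = 9) and 18.6 ± 5.54 (n = 9) in Brd1+/- mice. Its averaged log2 fold change was -0.94 (SE 0.17, limma adjusted p = 0.0040). Egr1, a zinc-finger transcription factor gene induced through SRF, had one of -0.66 (SE 0.13, limma adjusted p = 0.0107), and Arc, a synaptic activity gene, one of -0.67 (SE 0.13, limma adjusted p = 0.0121). Summed over the 13 genes, the level ran from 800.9 to 1608 TPM in WT vehicle, 1041 to 1662 in Brd1+/- vehicle, 705.5 to 1277 in WT IMN and 539.0 to 1237 in Brd1+/- IMN. None of the 13 had a median of 0 in any group.

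**Figure D3:**
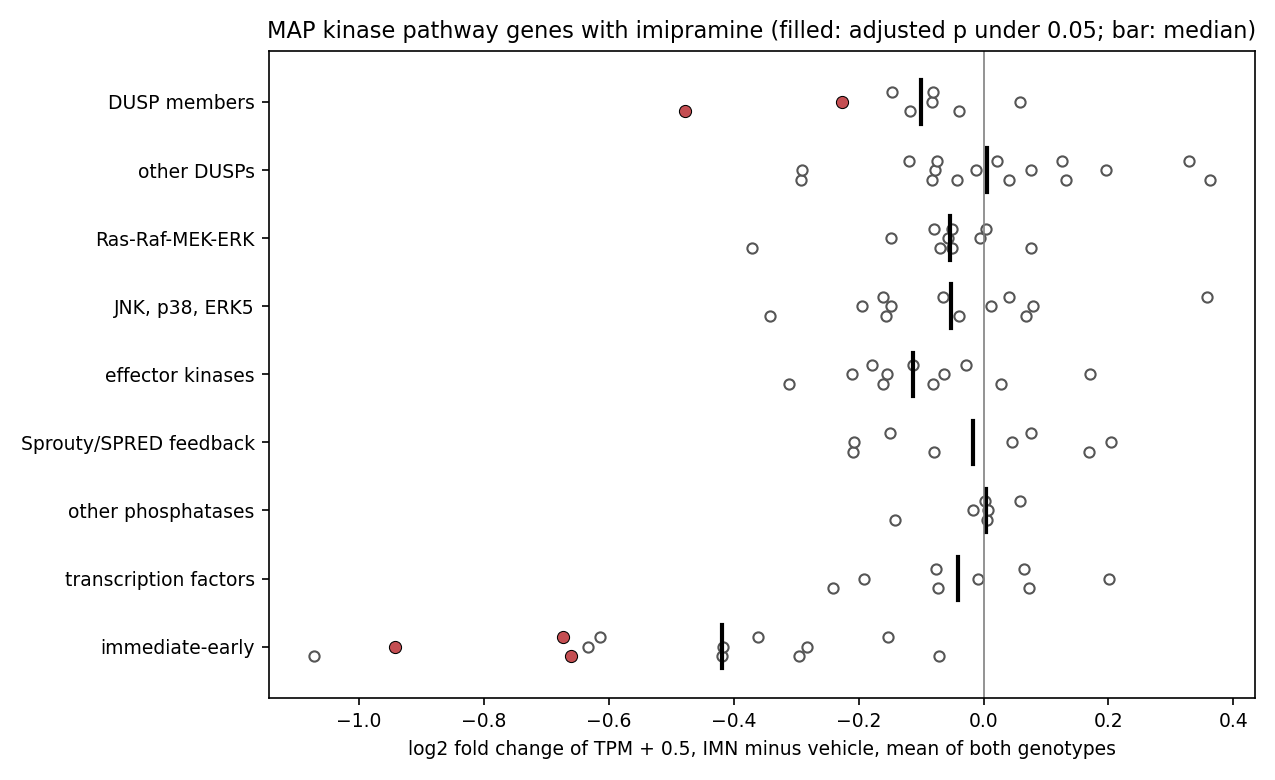
Log2 fold change of TPM + 0.5 with IMN against vehicle, averaged over genotypes (horizontal axis), for each tested gene of the 8 DUSP members and of 8 related lists, with filled points for a limma adjusted p under 0.05 and a bar for the list median. Filled points appear among the DUSP members (2) and the immediate-early genes (3), and the immediate-early median lies at -0.42, against -0.10 for the DUSP members.

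Dusp14, Dusp7 and the immediate-early score were all lower in the IMN groups than in the vehicle groups. With the immediate-early score of each library (the mean log2 level of the 13 genes) as a covariate, the averaged log2 fold change of Dusp14 was -0.18 (limma adjusted p = 0.643) and that of Dusp7 -0.13 (adjusted p = 0.536), and neither was called. That of Dusp6 changed sign, to 0.19 (adjusted p = 0.555). The part of neuronal activity in these results was not tested, since the score itself differed between the treatments.

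Oligodendrocyte markers also differed with IMN in direction: 10 of 10 had an averaged log2 fold change above 0 (median 0.41, 0 called), where 51.1% of all genes lay below 0. Their summed level ran from 191.9 to 2841 TPM in WT vehicle, 240.2 to 1800 in Brd1+/- vehicle, 233.1 to 3570 in WT IMN and 229.7 to 3445 in Brd1+/- IMN. No oligodendrocyte marker had a median of 0 over all libraries. In Brd1+/- mice that direction rested on Brd1+/- IMN replicate 6: 10 of 10 lay above 0 with it (median 0.16) and 2 of 10 without it (median -0.11). Striatal markers had no common direction. In WT mice 8 of 11 lay above 0 with IMN (median 0.12) and in Brd1+/- mice 11 of 11 lay below 0 (median -0.55), with 0 called in either. Of all genes 54.5% lay below 0 in WT and 47.5% in Brd1+/- mice. Averaged over genotypes 10 of 11 striatal markers lay below 0 (median -0.21, 0 called), but this depended on Brd1+/- vehicle replicate 6. Without it 7 of 11 did (median -0.025), and without all 3 libraries that stood apart 4 of 11 did (median 0.039). Summed striatal levels ran from 140.1 to 304.6, 176.2 to 1540, 168.9 to 396.8 and 149.8 to 225.6 TPM in the same order of groups. No striatal marker had a median of 0 over all libraries. With the scores of both marker lists as covariates the averaged log2 fold change was -0.38 for Dusp14 (limma adjusted p = 0.0621) and -0.23 for Dusp7 (adjusted p = 0.0686), so that both calls ended. In the same fit without Brd1+/- vehicle replicate 6 they were -0.38 (limma adjusted p = 0.0599) and -0.23 (adjusted p = 0.0636), and neither was called. The part of white matter or striatum in the punches was not tested further.

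Between mice of the same group the 8 genes did not vary as one set. Correlations were computed over 36 libraries after the group means had been removed, for 28 pairs of DUSP genes and for each of the 8 genes with the immediate-early score, 36 relations in all, with permutation p-values from 100000 draws within groups. At a Benjamini-Hochberg p under 0.05 for Pearson's r, 7 of the 36 passed. Dusp1 and Dusp5 varied together (r = 0.675, rho = 0.626, permutation p = 2e-05 and 0.00018, adjusted 0.00072 and 0.00648). Within groups r was 0.682 in WT vehicle, 0.758 in Brd1+/- vehicle, 0.482 in WT IMN and 0.811 in Brd1+/- IMN. Dusp4 and Dusp5 did so too (r = 0.645, rho = 0.574, permutation p = 6e-05 and 0.00046, adjusted 0.00108 and 0.00828), with r between 0.191 in WT IMN and 0.823 in WT vehicle. Dusp1 and Dusp4 had r = 0.509 and rho = 0.452 (permutation p = 0.00099 and 0.00569, adjusted 0.00713 and 0.0341), with r between 0.465 and 0.735 within groups. Without the 2 libraries farthest from the median r was 0.654, 0.542 and 0.502 for these 3 pairs (permutation p = 7e-05, 0.00099 and 0.00227, unadjusted). The 3 pairs of Dusp2, the other inducible nuclear gene, with Dusp1, Dusp4 and Dusp5 did not pass, at r = 0.342, 0.195 and 0.347 (rho = 0.351, 0.212 and 0.319, permutation p for r = 0.0617, 0.242 and 0.0440, adjusted 0.168, 0.418 and 0.132).

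Dusp1 and Dusp7 had r = 0.472 and rho = 0.475 (permutation p = 0.00405 and 0.00456, adjusted 0.0243 and 0.0328). Within groups, however, r ran from 0.048 in WT IMN to 0.844 in WT vehicle. Without the 2 farthest libraries r was 0.432 (permutation p = 0.0120, unadjusted). Dusp7 and Dusp14, the pair lower with IMN, had no relation that passed over the 36 libraries (r = -0.057, rho = -0.0461, permutation p = 0.756 and 0.802, adjusted 0.871 and 0.862). Within groups their r differed in sign, from -0.538 in Brd1+/- vehicle to 0.629 in WT IMN. Dusp6 and Dusp14 had r = 0.488 and rho = 0.432 (permutation p = 0.00496 and 0.0125, adjusted 0.0255 and 0.0538). That relation rested on 2 libraries: without WT vehicle replicate 1 and Brd1+/- IMN replicate 6, r was 0.241 (permutation p = 0.183).

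The immediate-early score was related to Dusp6 (r = 0.655, rho = 0.536, permutation p = 0.00057 and 0.00164, adjusted 0.00567 and 0.0197) and to Dusp14 (r = 0.597, rho = 0.494, permutation p = 0.00063 and 0.00402, adjusted 0.00567 and 0.0328). Both relations were weaker without WT vehicle replicate 1 and Brd1+/- IMN replicate 6. Then r was 0.381 (permutation p = 0.0370, unadjusted) for Dusp6 and 0.408 (permutation p = 0.0201, unadjusted) for Dusp14. Whether either would pass after adjustment without these libraries was not tested. With all libraries a permutation p of 0.021 (Dusp4 and Dusp7, Pearson's r) had an adjusted value of 0.0828, which did not pass. Within groups the score and Dusp14 had r = 0.577 in WT vehicle, 0.200 in Brd1+/- vehicle, 0.743 in WT IMN and 0.737 in Brd1+/- IMN, and the score and Dusp6 had r from 0.0177 in WT IMN to 0.909 in WT vehicle. For Dusp7 r was 0.414 and rho 0.437 (permutation p = 0.0230 and 0.0124, adjusted 0.0828 and 0.0538), which did not pass. Dusp1, itself an immediate-early gene that the score did not include, had r = 0.185 and rho = 0.297 (permutation p = 0.255 and 0.0829, adjusted 0.418 and 0.176).

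**Figure D4:**
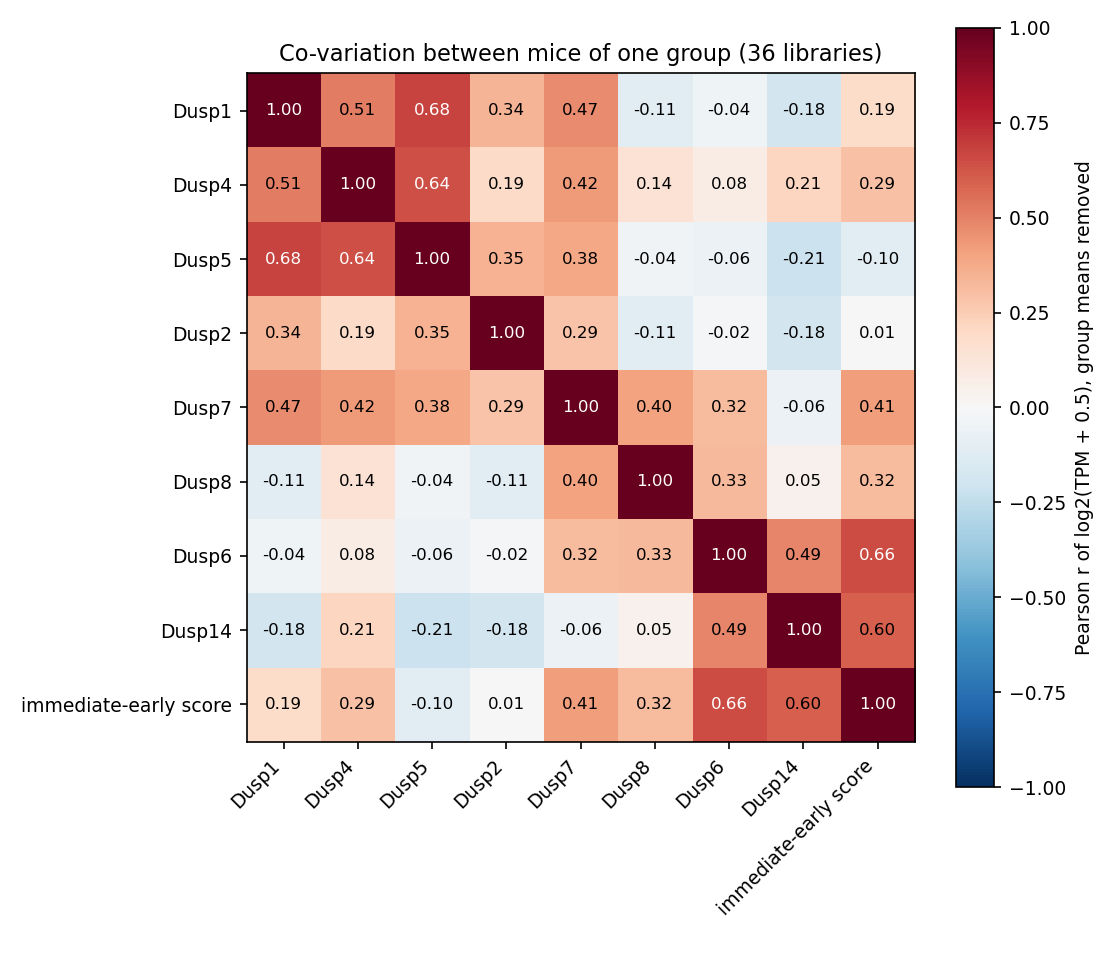
Pearson r between the 8 DUSP genes and the immediate-early score over 36 libraries, on log2(TPM + 0.5) with group means removed (colour scale from -1 to 1, r printed in each cell). Dusp1, Dusp4 and Dusp5 form a block with r from 0.51 to 0.68, and the score has its highest values with Dusp6 (0.66) and Dusp14 (0.60).

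**Figure D5:**
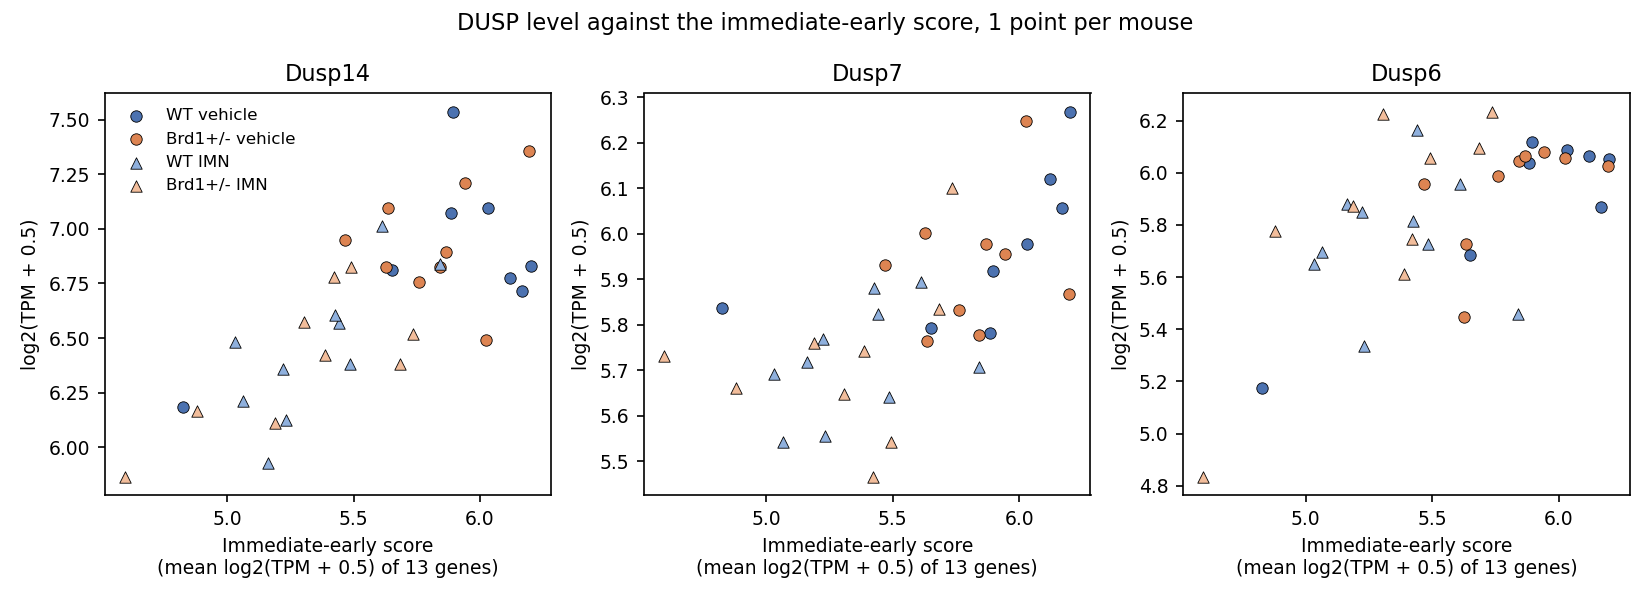
Level of Dusp14, Dusp7 and Dusp6 on the log2 scale (vertical axes) against the immediate-early score (horizontal axes), with 1 point per mouse, circles for vehicle and triangles for IMN. Triangles lie to the left of most circles, and in the Dusp6 panel the libraries with the lowest scores, Brd1+/- IMN replicate 6 (4.60) and WT vehicle replicate 1 (4.83), have the lowest Dusp6 levels.

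The genes whose levels were most like each DUSP gene between mice were read from the same 36 libraries among 17715 genes that averaged 1 TPM or more (17716 for Dusp2), as a description. For Dusp1 they were the immediate-early gene Ier2 (r = 0.745), Dusp5 (0.675) and Arc (0.670). For Dusp4 they were Hs3st1 (0.707), a heparan sulfate sulfotransferase gene, Epha10 (0.706) and Spry4 (0.691), a feedback inhibitor of ERK signalling. Dusp5 had Coro6 (0.864) and Jdp2 (0.861), which encodes an AP-1 family protein. Dusp2 had Sra1 (0.656), Snord69 (0.655) and Snhg20 (0.653). For Dusp6 they were Hkdc1 (0.907), F2rl2 (0.863) and the calmodulin kinase gene Camk1g (0.854). Dusp7 had Supt5 (0.683), a transcription elongation factor gene, Zfp184 (0.645) and the acid-sensing channel gene Asic1 (0.638), the lowest leading values beside those of Dusp2. Dusp8 had the histone methyltransferase gene Setd1b (0.873), Adgrl1 (0.832) and Pom121 (0.809). For Dusp14 they were Casp1 (0.747), which encodes an inflammatory caspase, the homeobox gene Meis2 (0.740) and A830009L08Rik (0.725).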

How the data were processed

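Total RNA from 1 mm punches of the right aCC was sequenced by the authors on a BGISEQ-500 (single-end reads). Per the labels and the study's methods, reads were checked with FastQC, trimmed with Trimmomatic, aligned to GRCm38 with HISAT2 2.1.0 and quantified against an Ensembl annotation with StringTie 1.3.4. The deposited values are TPM made by the authors, 1 per gene in each library, and the libraries were not scaled to each other. Column totals ran from 999727.1 to 999889.0. Depth per library is unknown, so no counting error was computed. The authors' own tests in edgeR were not used.

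Symbols were matched for 52403 of 52636 genes, and gene positions were taken from GENCODE M21 (GRCm38). TPM were transformed as log2(TPM + 0.5), a scale that understates changes at low levels. The filter kept genes that reached 0.1 TPM in 8 or more libraries, and these were tested with limma 3.58.1 in R 4.3.3 (empirical Bayes with a trend). P-values were two-sided and adjusted by Benjamini-Hochberg over 25572 genes, at a threshold of 0.05. Comparisons of 2 groups used their own libraries, and the averaged IMN effect and the interaction used all 36. This step was checked on simulated data first. For single differences all arrangements of the libraries were enumerated (exact permutation test, two-sided, without adjustment). Python 3.11.15 was used, with scipy 1.17.1, numpy 2.4.6, pandas 2.3.3 and, for plots, matplotlib 3.10.9. Labels placed each library in its group, and they name 1 mouse per library and no batch.

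The 8 genes, the lists and the tests were chosen with earlier results of these data known. Genes named outside the 8 were Brd1, the 2 tested genes with the smallest averaged p-value in each pathway list, and the 3 genes most like each of the 8, of which 1 is not reported here. Arc, one of the genes most like Dusp1, was described with IMN after its values had been seen. Alternative settings were another pseudocount (0.1 or 1), no filter, a filter on the mean (1 TPM or more), quantile normalization, median-ratio scaling, removal of mitochondrially encoded genes, array weights, the covariates named in the text, a replicate block, 1 fit over all 36 libraries, and each library left out in turn. Leaving out the libraries that stood apart together, or 1 of them in the fit with marker covariates and in the marker lists, was chosen after seeing the data.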

Additional observations from a re-analysis of the deposited data

Results flagged for a closer look

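In each of the 4 groups the highest and lowest value of each of the 8 genes was compared with the rest of its group by its gap to the nearest other value on the log2 scale, and 4 of the 32 sets of values held a library that stood apart, where chance gives about 1 in 20. Dusp6 was at 35.6 TPM in WT vehicle replicate 1, while the other 7 libraries of that group lay between 51.0 and 69.0 TPM. Dusp6 was at 28.01 TPM in Brd1+/- IMN replicate 6, while the others lay between 48.4 and 74.8 TPM. Dusp7 was at 75.5 TPM in Brd1+/- vehicle replicate 9, while the others lay between 53.9 and 63.5 TPM. Without that library the averaged IMN effect on Dusp7 was -0.21 on the log2 scale and not called (limma adjusted p = 0.0699). Dusp8 was at 68.3 TPM in WT vehicle replicate 7, while the others lay between 55.2 and 60.6 TPM. WT vehicle replicate 1 and Brd1+/- IMN replicate 6 also had the lowest immediate-early scores of all libraries, 4.83 and 4.60 on the log2 scale, and the highest summed oligodendrocyte markers of their groups, 2841 and 3445 TPM. WT vehicle replicate 1 had the highest summed striatal markers of its group too (304.6 TPM), while Brd1+/- IMN replicate 6 had the lowest of its own (149.8 TPM).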

How the results depend on the processing

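The averaged IMN effect on Dusp14 and Dusp7 was below 0 under all 11 alternatives, under 2 settings added later and in all 36 fits without 1 library, but the number of DUSP genes called depended on the setting. It was 2 with a pseudocount of 1, a mean of at least 1 TPM (which left out Dusp2) or array weights, and 1 with a pseudocount of 0.1, median-ratio scaling, removal of mitochondrially encoded genes or the replicate block. It was 0 without a filter on low values (35478 genes tested), with quantile normalization, with the immediate-early score as covariate or with those of striatal and oligodendrocyte markers, and 0 to 2 without 1 library. Of the settings chosen after seeing the data, the striatal and oligodendrocyte covariates without Brd1+/- vehicle replicate 6 gave 0 (67 of all genes called), and leaving out all 3 libraries that stood apart gave 2 (118 of all genes) and turned Dusp2 to -0.034. The adjusted p-value over the 11 alternatives ran from 0.00782 to 0.643 for Dusp14 (called in 6) and from 0.0228 to 0.536 for Dusp7 (called in 4). Dusp14 lost its call without WT vehicle replicate 2, 3, 6 or 8, Brd1+/- vehicle replicate 3, 4 or 6, WT IMN replicate 2, 4 or 5, or Brd1+/- IMN replicate 1, 4 or 6 (adjusted p from 0.0510 to 0.0674). Dusp7 lost it without WT vehicle replicate 2, 3, 5, 6 or 7, Brd1+/- vehicle replicate 1, 3, 4, 5, 7, 8 or 9, WT IMN replicate 1 to 7, or Brd1+/- IMN replicate 1 to 6 or 8 (0.0506 to 0.0974). Over all genes the averaged comparison called 65, against 205 with array weights, 40 without a filter, 37 with the replicate block, 5 with the immediate-early covariate, and 34 to 163 without 1 library. In the other 5 comparisons the number of DUSP genes called was 0 under each alternative. Of the 36 correlations 7 passed, 9 with median-ratio scaling and 7 with a pseudocount of 1. No pairing of the libraries by replicate number was seen: deviations of libraries with the same number correlated between -0.306 and 0.318 over the 4 comparisons. These values do not exclude a pairing, and pairing by litter was not tested. With the replicate block Dusp7 stayed called (adjusted p = 0.0444) and Dusp14 did not (0.0560).

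Log2 fold changes that changed sign were mostly close to 0 in the main fit or did so under the immediate-early covariate, and the cause was not tested. Apart from that covariate, the value farthest from 0 was that of Dusp6 with IMN in Brd1+/- mice. It was -0.10 in the main fit and reached 0.021 without 1 library. With that covariate the averaged effect was 0.19 for Dusp6 and 0.019 for Dusp8. The IMN effect in WT was 0.014 for Dusp1, 0.013 for Dusp4 and 0.098 for Dusp6, that in Brd1+/- mice was -0.061 for Dusp2 and 0.32 for Dusp6, and Dusp7 in Brd1+/- IMN against WT IMN was 0.0074. With the striatal and oligodendrocyte covariates Dusp2 in Brd1+/- mice was -0.030, and the interaction was -0.023 for Dusp1, -0.012 for Dusp2 and -0.010 for Dusp6. In the vehicle comparison array weights gave -0.027 for Dusp1, -0.086 for Dusp5, 0.0011 for Dusp8 and -0.0072 for Dusp14, the replicate block gave -0.040 for Dusp1 and -0.0025 for Dusp5, and quantile normalization gave 0.0045 for Dusp8. For Dusp7 between genotypes with IMN, quantile normalization gave 0.0061, removal of mitochondrially encoded genes 0.0076 and the replicate block 0.016. The IMN effect on Dusp5 in WT was 0.012 with median-ratio scaling, 0.016 with quantile normalization, 0.012 without mitochondrially encoded genes and 0.12 with the replicate block. That on Dusp8 in Brd1+/- mice was -0.00029 with median-ratio scaling and -0.0033 with array weights, and the Dusp2 interaction was -0.022 with quantile normalization. Without 1 library the vehicle comparison ran from -0.042 to 0.071 for Dusp1, -0.18 to 0.0058 for Dusp2, -0.16 to 0.0042 for Dusp4, -0.14 to 0.11 for Dusp5, -0.056 to 0.11 for Dusp6, -0.080 to 0.0023 for Dusp7, -0.043 to 0.0056 for Dusp8 and -0.042 to 0.15 for Dusp14. Between genotypes with IMN it ran from -0.13 to 0.066 for Dusp2, -0.073 to 0.035 for Dusp4, -0.049 to 0.031 for Dusp7 and -0.10 to 0.021 for Dusp14. The IMN effect in WT ran from -0.069 to 0.13 for Dusp2 and -0.16 to 0.067 for Dusp5, and in Brd1+/- mice from -0.10 to 0.0057 for Dusp1, -0.0088 to 0.17 for Dusp2, -0.16 to 0.021 for Dusp6 and -0.024 to 0.025 for Dusp8. The interaction ran from -0.056 to 0.14 for Dusp2, -0.017 to 0.14 for Dusp4, -0.032 to 0.15 for Dusp6 and -0.0086 to 0.079 for Dusp7. Depth is unknown for TPM, and Dusp2, at a mean under 1 TPM, had the widest intervals.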
